A study of Mus musculus with 4 samples.

Results

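The genes of cholesterol and fatty acid synthesis were 32 members of 41214 gene identifiers, chosen by name from the textbook pathway and its regulators. Earlier results of these data were known at that choice, so shares of members beside those of all genes describe the list only. The members were found by matching each symbol to the mouse Ensembl identifiers of the count tables. They comprised 18 enzymes that lead to cholesterol, 5 genes of the SREBP pathway that controls them, 5 enzymes of fatty acid synthesis and desaturation, and 4 genes of sterol and lipoprotein transport. All 32 passed the filter on low counts. RNA had been sequenced from megakaryocytes, the marrow cells that release platelets, sorted from leg and arm bones of C57Bl/6 mice aged 8 weeks. The gate took lineage-negative cells bearing cKit together with CD41 and CD61. The 4 groups had 1 library each: Gfi1b knockout with PF4-Cre, Gfi1b wild-type with PF4-Cre, Gfi1b knockout with ROSA-Cre and Gfi1b wild-type with ROSA-Cre, so that each pair shared its Cre label. Gfi1b encodes a zinc finger repressor of megakaryocyte and red cell development. Pf4 is active in megakaryocytes, which cells the ROSA-Cre allele reaches is left unsaid by the labels, and nothing in the sources used here tells how many mice went into each library.

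Cells build cholesterol from acetyl-CoA through mevalonate, isoprenoids, squalene and lanosterol. The transcription factors SREBP1 and SREBP2 switch on these enzymes and those of fatty acid synthesis when sterols run low, after SCAP has carried them out of the endoplasmic reticulum, where INSIG proteins otherwise hold them. When sterols are abundant, oxysterols activate the LXR nuclear receptors, which induce the sterol exporters Abca1 and Abcg1, and also Scd1 and Srebf1. Megakaryocytes need membrane lipid for the internal membranes from which platelets form.

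Gene counts totalled 59595680 and 61652843 in the PF4-Cre knockout and PF4-Cre wild-type libraries, and 21835165 and 24869421 in the ROSA-Cre knockout and ROSA-Cre wild-type libraries. Levels are given as CPM, counts relative to the library total, scaled by TMM, a normalisation that aligns most genes between libraries. The genotype effect was tested with edgeR across all 15063 genes that passed the filter, with the Cre model as a term, which leaves 2 libraries per genotype (n = 2), with PF4-Cre and ROSA-Cre standing in as replicates. Its p-values rest on how far the models disagreed, mostly as pooled over genes, since each gene has 1 residual degree of freedom. They do not measure the spread within a group. The targeted gene itself had the higher count in the libraries labelled knockout, with 84744 counts against 10137 in PF4-Cre and 55122 against 5864 in ROSA-Cre. Gfi1b counts therefore do not check the labels, and knockout means labelled knockout throughout. The 7 megakaryocyte markers summed to 7206 CPM in PF4-Cre knockout against 6644 CPM in PF4-Cre wild-type, and to 6172 CPM in ROSA-Cre knockout against 9374 CPM in ROSA-Cre wild-type. The sort gate genes Itga2b (CD41), Itgb3 (CD61) and Kit were present in every library at 202 CPM or more, and Itgb3 was higher in knockout libraries by a log2 fold change of 1.05 (SE 0.18, edgeR adjusted p = 0.00912). Of 10 neutrophil markers 4 passed the test (Mpo, Elane, Prtn3 and Ctsg), all lower in knockout libraries, where 9.59% of all genes tested were lower. Over all 10 the median log2 ratio was 0.04 in the PF4-Cre pair and -1.96 in the ROSA-Cre pair. In both models 5 of the 10 were lower, and the other 5 differed in direction between the models. The summed level of the 10 was 1056 CPM in PF4-Cre knockout against 1727 CPM in PF4-Cre wild-type, and 490.2 CPM in ROSA-Cre knockout against 1883 CPM in ROSA-Cre wild-type. Of 8 monocyte and macrophage markers 4 passed, all lower, where 9.59% of all genes tested were lower. The 8 summed to 118 CPM in PF4-Cre knockout against 172 CPM in PF4-Cre wild-type, and 74.2 CPM in ROSA-Cre knockout against 179 CPM in ROSA-Cre wild-type. F13a1, 1 of the 4, made up 63.9% to 68.3% of these sums, which therefore mainly follow that gene. Of 8 erythroid markers 3 rose and 2 fell, where 12.6% of all genes tested rose and 9.59% fell. Hbb-bs, an adult globin, had 135 CPM in PF4-Cre knockout against 7.30 CPM in PF4-Cre wild-type, and 221 CPM in ROSA-Cre knockout against 37.7 CPM in ROSA-Cre wild-type (log2 fold change 3.36, edgeR adjusted p = 0.00185), while Klf1, a red cell transcription factor, fell by 2.31 on the log2 scale. The erythroid sum was 505 CPM in PF4-Cre knockout against 444 CPM in PF4-Cre wild-type, and 499 CPM in ROSA-Cre knockout against 349 CPM in ROSA-Cre wild-type. Of 5 stroma markers the 2 tested fell, Lepr by 2.56 and Cxcl12 by 2.01, where 9.59% of all genes tested were lower. The list sum was at most 7.48 CPM in any library. Lepr passed the filter on low counts only through the wild-type libraries, where it is high, so its call adds nothing to this count. Knockout against wild-type counts of Lepr were 9 against 73 in PF4-Cre and 4 against 8 in ROSA-Cre. Those of Cxcl12 were 43 against 336 in PF4-Cre and 36 against 51 in ROSA-Cre, so both falls lay mostly in the PF4-Cre pair. Of 5 mast cell and basophil markers 1 rose (Fcer1a, log2 fold change 1.33) and 0 fell. Of 3 tested endothelial markers 1 rose (Emcn, 2.80) and 0 fell. Among all genes tested 12.6% rose and 9.59% fell. Of 4 tested B cell markers and 2 tested T and NK cell markers, 0 passed. No neutrophil, monocyte or erythroid marker was at 0 in any library, and the part of any of these lists in the results on lipid genes was not tested. In bulk RNA, fewer cells of a type and less RNA per cell cannot be told apart.

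Promoter sequences are shown first for 7 members, to show where letters of the elements lie through which SREBP, its cofactor NF-Y and LXR are known to act. RefSeq promoters on GRCm38.p6, each from 250 bases before to 50 after a transcription start, were found for 25 of the 32 members. Capitals mark matches on either strand to TCACNCCAC (a sterol regulatory element, bound by SREBP), CCAAT (bound by NF-Y, read as ATTGG on the other strand) or GGTNA and GGTCA with 5 bases between them (a DR4 element, bound by LXR with its partner RXR).
Abca1, chr4:53159846-53160145, minus strand: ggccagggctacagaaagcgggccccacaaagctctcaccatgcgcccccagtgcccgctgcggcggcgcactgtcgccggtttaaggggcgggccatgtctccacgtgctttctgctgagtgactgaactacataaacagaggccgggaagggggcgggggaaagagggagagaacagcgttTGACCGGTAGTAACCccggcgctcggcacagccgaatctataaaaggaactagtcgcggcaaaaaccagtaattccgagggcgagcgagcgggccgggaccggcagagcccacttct
Srebf1, chr11:60210422-60210721, minus strand: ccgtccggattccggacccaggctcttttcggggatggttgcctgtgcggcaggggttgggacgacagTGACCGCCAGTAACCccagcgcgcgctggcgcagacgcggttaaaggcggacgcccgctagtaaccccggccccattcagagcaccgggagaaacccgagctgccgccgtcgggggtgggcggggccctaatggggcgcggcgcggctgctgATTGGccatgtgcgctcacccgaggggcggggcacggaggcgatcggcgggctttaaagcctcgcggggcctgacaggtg
Fasn, chr11:120824498-120824797, minus strand: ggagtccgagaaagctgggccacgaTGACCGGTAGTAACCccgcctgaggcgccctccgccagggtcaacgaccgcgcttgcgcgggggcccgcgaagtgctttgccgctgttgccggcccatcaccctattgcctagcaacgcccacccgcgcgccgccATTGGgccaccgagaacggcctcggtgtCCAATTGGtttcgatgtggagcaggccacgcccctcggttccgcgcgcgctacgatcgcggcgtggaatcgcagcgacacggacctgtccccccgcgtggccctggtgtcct
Srebf2, chr15:82147019-82147318, plus strand: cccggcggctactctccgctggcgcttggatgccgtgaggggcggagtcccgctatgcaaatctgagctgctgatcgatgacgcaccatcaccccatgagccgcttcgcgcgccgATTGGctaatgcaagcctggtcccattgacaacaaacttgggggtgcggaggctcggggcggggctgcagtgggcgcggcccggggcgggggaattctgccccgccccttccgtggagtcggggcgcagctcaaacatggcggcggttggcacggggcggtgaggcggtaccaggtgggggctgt
Hmgcs1, chr13:119690101-119690400, plus strand: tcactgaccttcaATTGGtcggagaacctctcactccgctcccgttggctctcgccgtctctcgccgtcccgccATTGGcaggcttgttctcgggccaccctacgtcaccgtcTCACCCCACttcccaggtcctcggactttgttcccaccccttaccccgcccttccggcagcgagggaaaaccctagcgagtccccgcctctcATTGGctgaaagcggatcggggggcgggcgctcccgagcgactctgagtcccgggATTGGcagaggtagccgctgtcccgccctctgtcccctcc
Mvk, chr5:114444019-114444318, plus strand: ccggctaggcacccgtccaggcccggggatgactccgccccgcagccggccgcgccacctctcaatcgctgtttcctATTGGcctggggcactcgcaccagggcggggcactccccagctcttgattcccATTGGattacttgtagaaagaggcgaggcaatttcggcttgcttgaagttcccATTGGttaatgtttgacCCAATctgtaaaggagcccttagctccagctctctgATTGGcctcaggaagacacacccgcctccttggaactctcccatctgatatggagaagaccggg
Cyp51, chr5:4104648-4104947, minus strand: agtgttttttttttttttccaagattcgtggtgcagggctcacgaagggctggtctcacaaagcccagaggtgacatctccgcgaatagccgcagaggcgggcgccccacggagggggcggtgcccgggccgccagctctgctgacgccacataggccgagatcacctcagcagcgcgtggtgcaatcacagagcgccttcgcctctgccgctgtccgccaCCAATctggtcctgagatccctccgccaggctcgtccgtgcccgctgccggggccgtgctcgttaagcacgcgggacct

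The 25 members have 35 promoters in the table, since some have several starts; of the 3 of Srebf1, the one with the DR4 letters is shown. The DR4 letters stood in 3 of the 35, those of Abca1, Srebf1 and Fasn, and in 0.207% of all 32851 promoters. They had been loosened after the Abca1 promoter had been read, so the Abca1 match follows from that choice and the shares are not a test. Abca1 and Fasn held the same 15 letters, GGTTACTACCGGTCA on the strand opposite to the gene, at different distances from the start. CCAAT stood in 21 of the 35 member promoters, or 60.0%, against 37.4% of all promoters. Counted by gene, with any promoter of a gene sufficing, it stood in 20 of the 25 members against 41.1% of all 27025 genes in the table, and in 14 of the 15 sterol enzymes found there. The letters of the sterol regulatory element stood in 1 of the 35, that of Hmgcs1, and in 1.24% of all promoters. A GC box (GGGCGG) stood in 25 of the 35 (71.4%, against 35.7% of all promoters) and an E-box (CACGTG) in 7 (20.0%, against 7.15%). The core AATCAC of the GFI1 motif stood in 7 (20.0%, against 10.4%), from Cyp51, Dhcr7, Ebp, Msmo1, Pmvk and Scap. In Fasn a CCAAT and an ATTGG overlap, and none of the other motifs was capitalised. These are matches of letters, and no match says only that the letters are not in this window.

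In libraries labelled knockout, 12 of the 32 members were lower and 2 higher than in wild-type, where 9.59% of all genes tested were lower, 12.6% higher and 22.2% called either way (edgeR quasi-likelihood test, Benjamini-Hochberg adjusted p under 0.05). Those lower were the enzymes Mvk, Fdps, Sqle, Cyp51 and Msmo1, the regulators Srebf1, Srebf2 and Scap, the fatty acid enzymes Acly, Acaca and Fasn, and the lipoprotein receptor Lrp8. The pair that rose were the desaturase gene Scd1 and the cholesterol exporter gene Abca1. Among the members with the largest changes, in GRCm38 coordinates from GENCODE, Sqle (ENSMUSG00000022351) lies at chr15:59315077-59331192 on the plus strand. Fdps (ENSMUSG00000059743) lies at chr3:89093588-89101959 on the minus strand. Lrp8 (ENSMUSG00000028613) lies at chr4:107802261-107876840 on the plus strand. Scd1 (ENSMUSG00000037071) lies at chr19:44394455-44407879 on the minus strand. Abca1 (ENSMUSG00000015243) lies at chr4:53030787-53159895 on the minus strand. The median log2 fold change was -0.39 over the members and -0.02 over all genes tested. In 19 members both knockout libraries lay below both wild-type libraries and in 5 both lay above, against 23.7% and 23.4% of all genes. When the Cre model term was dropped with all 4 libraries kept, 0 members were called lower and 0 higher. Fits with 1 library left out drop that term too. Calls lost in them, here and below, therefore do not by themselves show reliance on any 1 library. With 1 library left out and the Cre model term dropped, 0 or 1 of the 12 lower calls was left, always Lrp8, whereas Scd1 was called whichever 1 of the 4 libraries was left out, and Abca1 was called without PF4-Cre knockout and without ROSA-Cre wild-type.

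**Figure D1:**
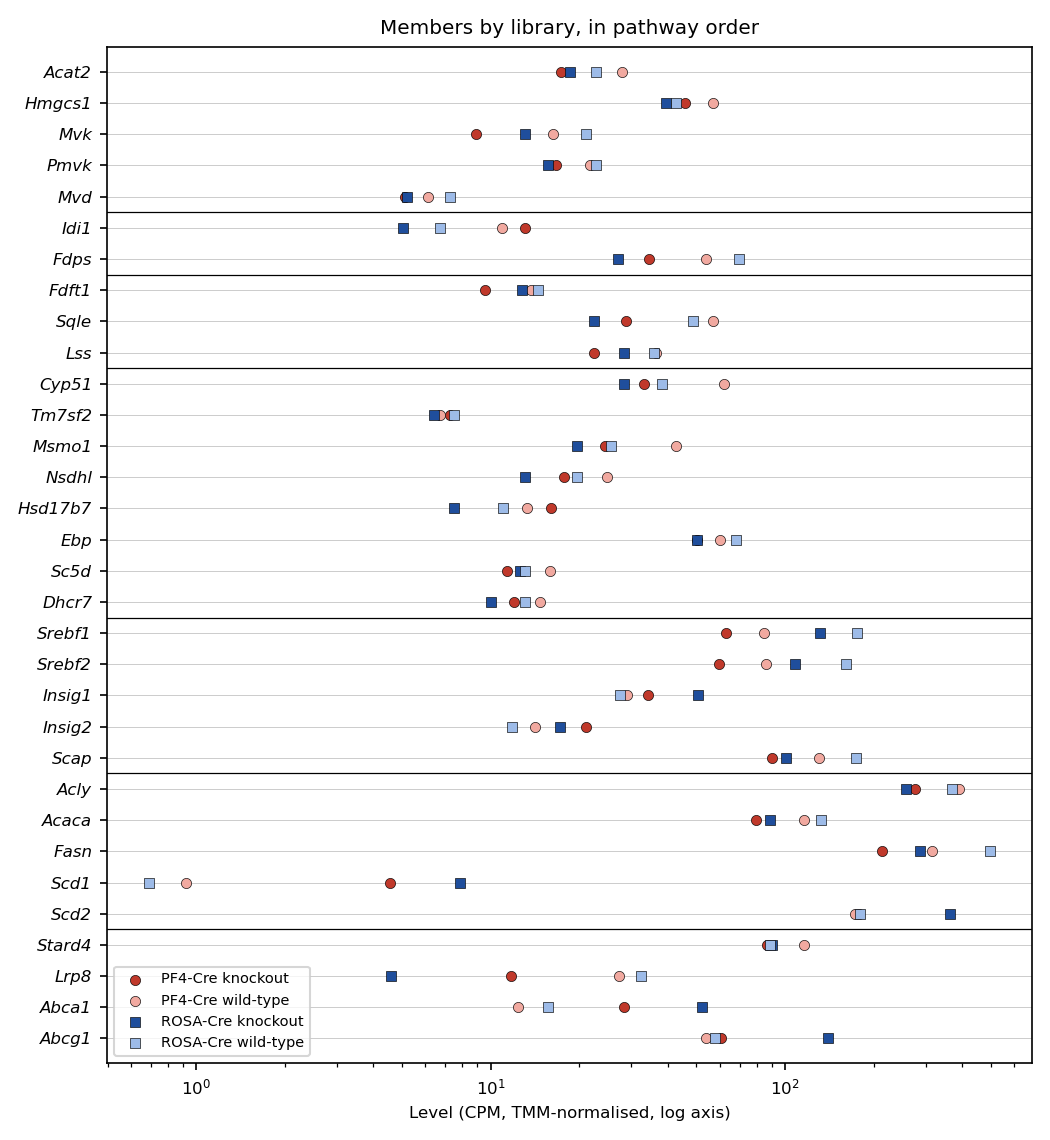
TMM-normalised CPM (horizontal, log axis) of the 32 members in pathway order, with 1 point per library: circles are PF4-Cre, squares ROSA-Cre, dark points knockout and pale points wild-type, and lines part the roles. Sqle, Fdps and Lrp8 have both dark points left of both pale points, and Scd1 and Abca1 have them on the right.

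The first steps make mevalonate and activate it. Mvk, which encodes mevalonate kinase, had 8.89 CPM in PF4-Cre knockout against 16.3 CPM in PF4-Cre wild-type, and 13.04 CPM in ROSA-Cre knockout against 21.05 CPM in ROSA-Cre wild-type. Both knockout libraries were below both wild-type libraries, and Mvk fell by 0.79 on the log2 scale (SE 0.20, edgeR adjusted p = 0.0306). Acat2, the thiolase that joins acetyl-CoA units, had 17.4 CPM in PF4-Cre knockout against 27.8 CPM in PF4-Cre wild-type, and 18.7 CPM in ROSA-Cre knockout against 22.8 CPM in ROSA-Cre wild-type. Its log2 fold change of -0.49 (SE 0.19) did not pass the test (edgeR adjusted p = 0.0986). Of the 50-base words of its longest transcript, 45.9% also occur in Acat3 and 13.2% in Tcp1 as the reverse complement, so its reads could be lost or split. Hmgcs1, the HMG-CoA synthase, had 45.6 CPM in PF4-Cre knockout against 56.8 CPM in PF4-Cre wild-type, and 39.4 CPM in ROSA-Cre knockout against 42.7 CPM in ROSA-Cre wild-type, and its groups overlapped. The remaining kinase and decarboxylase, Pmvk and Mvd, had log2 fold changes of -0.46 (SE 0.18) and -0.36 (SE 0.26) without passing. Mvk lost its call when any 1 library was left out (edgeR adjusted p from 0.344 to 0.850).

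The isoprenoid enzymes Idi1 and Fdps make and join the branched units from which sterols are built. Fdps, farnesyl diphosphate synthase, had 34.4 CPM in PF4-Cre knockout against 53.9 CPM in PF4-Cre wild-type, and 27.0 CPM in ROSA-Cre knockout against 69.7 CPM in ROSA-Cre wild-type. The knockout libraries lay below the wild-type libraries in both models, by ratios of 0.639 (95% counting interval 0.604 to 0.675) in PF4-Cre, while the ROSA-Cre pair gave 0.387 (0.353 to 0.425). Fdps fell by 0.996 on the log2 scale (SE 0.19, edgeR adjusted p = 0.0141), and 26.7% of its exonic bases are also annotated to the same-strand gene Gm43738. Idi1, the isomerase one step earlier, had 13.1 CPM in PF4-Cre knockout against 10.9 CPM in PF4-Cre wild-type, and 5.05 CPM in ROSA-Cre knockout against 6.75 CPM in ROSA-Cre wild-type, so the models differed in direction. Its levels were lower in the ROSA-Cre model (log2 fold change -1.03 for ROSA-Cre over PF4-Cre, SE 0.26, edgeR adjusted p = 0.0379). Idi1 shares 21.3% of its 50-base words with the pseudogene Gm13502. The Fdps call was lost whichever library was left out (edgeR adjusted p from 0.111 to 0.508).

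Squalene is made by Fdft1, oxidised by Sqle and closed into lanosterol by Lss. Sqle had the smallest p of the 18 sterol enzymes, with 28.9 CPM in PF4-Cre knockout against 56.7 CPM in PF4-Cre wild-type, and 22.5 CPM in ROSA-Cre knockout against 48.8 CPM in ROSA-Cre wild-type. Its knockout to wild-type ratios in PF4-Cre and ROSA-Cre were 0.510 (0.481 to 0.540) and 0.460 (0.414 to 0.511). The log2 fold change of Sqle was -1.04 (SE 0.15, edgeR adjusted p = 0.0047). Lss had 22.5 CPM in PF4-Cre knockout against 36.5 CPM in PF4-Cre wild-type, and 28.4 CPM in ROSA-Cre knockout against 36.0 CPM in ROSA-Cre wild-type. Both of its knockout libraries were below both wild-type libraries, but its log2 fold change of -0.53 (SE 0.17) did not pass the test (edgeR adjusted p = 0.0596). Lss passed after an offset for GC content and length (log2 fold change -0.68, edgeR adjusted p = 0.0198). Fdft1 had 9.57 CPM in PF4-Cre knockout against 13.7 CPM in PF4-Cre wild-type, and 12.8 CPM in ROSA-Cre knockout against 14.5 CPM in ROSA-Cre wild-type, and was not called (log2 fold change -0.36, SE 0.21). Since 18.3% of the exonic bases of Fdft1 overlap Ctsb on the opposite strand and the strand setting of the counting is not given, Fdft1 is uncertain. Sqle was not called with 1 library left out (edgeR adjusted p from 0.1003 to 0.392).

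From lanosterol to cholesterol, 2 of 8 enzymes fell and 0 rose, against 9.59% and 12.6% of all genes, and 8 of 8 had a log2 fold change below 0, as had 7822 of all 15063 genes. Cyp51, the lanosterol demethylase, had 33.2 CPM in PF4-Cre knockout against 61.8 CPM in PF4-Cre wild-type, and 28.4 CPM in ROSA-Cre knockout against 38.3 CPM in ROSA-Cre wild-type. It fell by 0.67 (SE 0.17, edgeR adjusted p = 0.0297), with a ratio of 0.537 (0.508 to 0.567) in PF4-Cre, while the ROSA-Cre pair gave 0.743 (0.671 to 0.823). Msmo1, the methylsterol oxidase, had 24.5 CPM in PF4-Cre knockout against 42.7 CPM in PF4-Cre wild-type, and 19.7 CPM in ROSA-Cre knockout against 25.6 CPM in ROSA-Cre wild-type, and fell by 0.60 (SE 0.18, edgeR adjusted p = 0.0485). The Msmo1 call was lost in the DESeq2 Wald test (adjusted p = 0.0507). Both calls were lost without a filter on low counts (edgeR adjusted p = 0.0571 for Cyp51 and 0.0789 for Msmo1), and whichever library was left out (0.263 to 0.843 and 0.383 to 0.914). Nsdhl, which works on the same methyl groups, had 17.8 CPM in PF4-Cre knockout against 24.9 CPM in PF4-Cre wild-type, and 13.1 CPM in ROSA-Cre knockout against 19.7 CPM in ROSA-Cre wild-type (log2 fold change -0.53, SE 0.18, edgeR adjusted p = 0.0742). The isomerase Ebp, the most abundant per exon length of the 18 sterol enzymes, had 50.3 CPM in PF4-Cre knockout against 60.3 CPM in PF4-Cre wild-type, and 50.1 CPM in ROSA-Cre knockout against 68.3 CPM in ROSA-Cre wild-type, with a log2 fold change of -0.35 (SE 0.13). Dhcr7 and Sc5d, which act late in the pathway, had log2 fold changes of -0.33 (SE 0.20) and -0.29 (SE 0.22). Tm7sf2 and Hsd17b7, a sterol reductase and a ketoreductase, were near 0 at -0.04 (SE 0.25) and -0.08 (SE 0.26), each with a ratio above 1 in PF4-Cre and below 1 in ROSA-Cre. Of the exonic bases of Tm7sf2, 12.1% are shared with Vps51 on the same strand.

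Over all 18 sterol enzymes, 5 fell and 0 rose, against 9.59% and 12.6% of all genes. A knockout to wild-type ratio below 1 in both models was found for 15 of the 18, against 40.7% of all genes. In 14, both knockout libraries lay below both wild-type libraries, against 23.7% of all genes. The summed level of the 18 was 375 CPM in PF4-Cre knockout against 541 CPM in PF4-Cre wild-type, and 336 CPM in ROSA-Cre knockout against 489 CPM in ROSA-Cre wild-type. The median log2 fold change was -0.41. At least 1.5-fold lower were 7 of the 18 in the PF4-Cre pair and 3 in the ROSA-Cre pair, with 3 in both (Fdps, Mvk and Sqle), against 8.21%, 18.3% and 5.36% of all genes. Over all 32 members, 22 were lower and 6 higher in both models, against 40.7% and 36.2% of all genes, and 2 (Scd1 and Abca1) were at least 1.5-fold higher in both, against 12.7%.

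**Figure D2:**
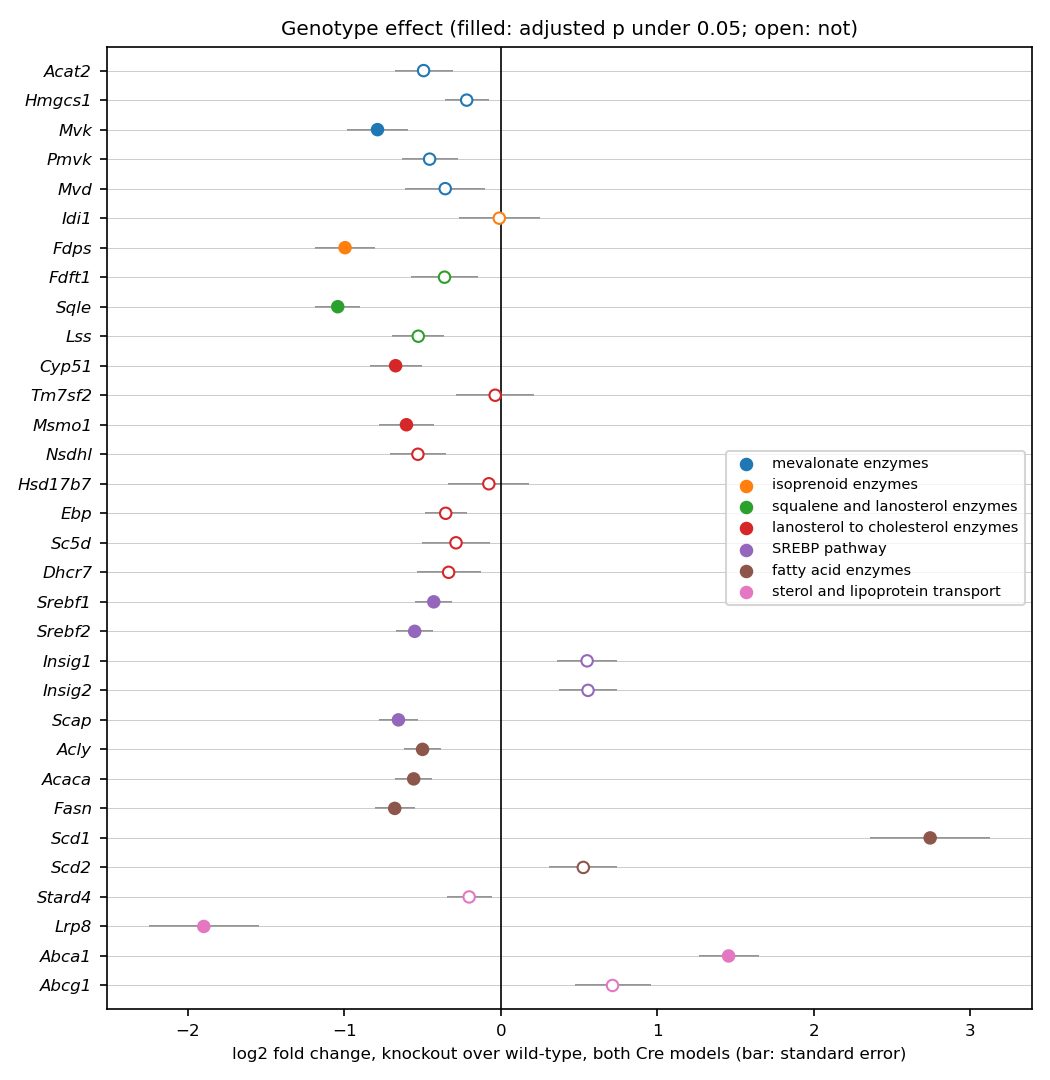
log2 fold change of knockout over wild-type across both Cre models (horizontal, bars are standard errors) for the 32 members, coloured by role. Filled points have an edgeR adjusted p under 0.05: 12 lie left of 0 and 2, Scd1 and Abca1, right of it.

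Of the 5 genes that control the pathway, Srebf1, Srebf2 and Scap fell, and the retention genes Insig1 and Insig2 did not pass the test, where 9.59% of all genes fell. Srebf2, which encodes SREBP2, had 59.6 CPM in PF4-Cre knockout against 86.3 CPM in PF4-Cre wild-type, and 108 CPM in ROSA-Cre knockout against 161 CPM in ROSA-Cre wild-type. Srebf1 had 62.9 CPM in PF4-Cre knockout against 84.9 CPM in PF4-Cre wild-type, and 131 CPM in ROSA-Cre knockout against 176 CPM in ROSA-Cre wild-type. Both genes were lower in knockout within each model, but the ROSA-Cre knockout library exceeded the PF4-Cre wild-type library, so the genotypes overlapped. Srebf2 fell by 0.55 (SE 0.12, edgeR adjusted p = 0.0195) and Srebf1 by 0.43 (SE 0.12, edgeR adjusted p = 0.0397). The Srebf1 call did not hold without a filter on low counts (edgeR adjusted p = 0.0843) or with genes of at least 5 CPM (0.0579). With the Cre model term dropped, the log2 fold change of Srebf1 was 0.010 without PF4-Cre knockout and 0.21 without ROSA-Cre wild-type, and that of Srebf2 was -0.19 and -0.017 in those fits. Leaving out PF4-Cre wild-type or ROSA-Cre knockout gave -0.86 and -1.05 for Srebf1, and -0.94 and -1.05 for Srebf2. Scap, the escort of both factors, had 90.4 CPM in PF4-Cre knockout against 130 CPM in PF4-Cre wild-type, and 101 CPM in ROSA-Cre knockout against 174 CPM in ROSA-Cre wild-type, and fell by 0.65 (SE 0.13, edgeR adjusted p = 0.0141). Srebf1, Srebf2 and Scap lost their calls whichever library was left out (edgeR adjusted p from 0.202 to 0.999).

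Insig1 and Insig2 encode the proteins that retain SCAP. Insig1 had 34.2 CPM in PF4-Cre knockout against 29.1 CPM in PF4-Cre wild-type, and 50.7 CPM in ROSA-Cre knockout against 27.4 CPM in ROSA-Cre wild-type. Insig2 had 21.1 CPM in PF4-Cre knockout against 14.2 CPM in PF4-Cre wild-type, and 17.1 CPM in ROSA-Cre knockout against 11.8 CPM in ROSA-Cre wild-type. For both genes the knockout libraries lay above the wild-type libraries in both models, and their log2 fold changes were 0.55 (SE 0.19, edgeR adjusted p = 0.0781) and 0.56 (SE 0.19, edgeR adjusted p = 0.074), short of the threshold. Restricted to genes of at least 5 CPM, the test called both (edgeR adjusted p = 0.0389 and 0.039). Stard4, a carrier of cholesterol between membranes, had 86.8 CPM in PF4-Cre knockout against 116 CPM in PF4-Cre wild-type, and 90.4 CPM in ROSA-Cre knockout against 89.1 CPM in ROSA-Cre wild-type, and did not pass (log2 fold change -0.20, SE 0.14).

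Of the 5 fatty acid enzymes, 3 fell (Acly, Acaca and Fasn) and 1 rose (Scd1), where 9.59% of all genes fell and 12.6% rose. Acly, which makes cytosolic acetyl-CoA from citrate, had 277 CPM in PF4-Cre knockout against 389 CPM in PF4-Cre wild-type, and 258 CPM in ROSA-Cre knockout against 367 CPM in ROSA-Cre wild-type. Per exon length it was the most abundant member, at a mean of 61.1 CPM per kb over the 4 libraries. Acaca, the acetyl-CoA carboxylase, had 79.4 CPM in PF4-Cre knockout against 116 CPM in PF4-Cre wild-type, and 89.1 CPM in ROSA-Cre knockout against 132 CPM in ROSA-Cre wild-type, and Fasn, the fatty acid synthase, had 213 CPM in PF4-Cre knockout against 316 CPM in PF4-Cre wild-type, and 288 CPM in ROSA-Cre knockout against 496 CPM in ROSA-Cre wild-type. All 3 had both knockout libraries below both wild-type libraries. Acly fell by 0.50 (SE 0.12, edgeR adjusted p = 0.0271), Acaca by 0.56 (SE 0.12, edgeR adjusted p = 0.0188) and Fasn by 0.68 (SE 0.13, edgeR adjusted p = 0.0124). The knockout to wild-type ratio was much alike in both models for Acly, 0.711 (0.697 to 0.725) in PF4-Cre, while the ROSA-Cre pair gave 0.703 (0.680 to 0.726), and for Acaca, 0.685 and 0.675. Acaca shares 52.6% of its 50-base words with the gene Gm5182, so part of its reads could be dropped as not unique. The Acly call ended without a filter on low counts (edgeR adjusted p = 0.0554), and none of the 3 was called with 1 library left out (0.137 to 0.908).

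Scd1 and Scd2 encode stearoyl-CoA desaturases, which put a double bond into saturated fatty acids. Scd1 was low in wild-type libraries, with 276 counts (4.56 CPM) in PF4-Cre knockout against 55 counts (0.920 CPM) in PF4-Cre wild-type, and 176 counts (7.86 CPM) in ROSA-Cre knockout against 17 counts (0.691 CPM) in ROSA-Cre wild-type. Its ratio was 4.96 (3.70 to 6.75) in PF4-Cre, while the ROSA-Cre pair gave 11.4 (6.91 to 20.0), and its log2 fold change was 2.74 (SE 0.38, edgeR adjusted p = 0.0047), the largest rise of any member. Scd1 stayed called whichever library was left out (edgeR adjusted p from 0.000997 to 0.0219). Scd2, the far more abundant form, had 178 CPM in PF4-Cre knockout against 172 CPM in PF4-Cre wild-type, and 364 CPM in ROSA-Cre knockout against 180 CPM in ROSA-Cre wild-type. Its level was thus raised in the ROSA-Cre knockout library alone, and the genotype effect of 0.53 (SE 0.22) did not pass (edgeR adjusted p = 0.126). Per exon length, the level of Scd2 was 34.9 times that of Scd1 in PF4-Cre knockout against 168 times in PF4-Cre wild-type, and 41.4 times in ROSA-Cre knockout against 233 times in ROSA-Cre wild-type. Of the 50-base words of Scd1, 3.03% also occur in Scd2, and reads from those cannot be told apart.

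Of the 4 transport genes, 1 rose and 1 fell, where 12.6% of all genes rose and 9.59% fell. Abca1, which exports cholesterol to apolipoproteins, had 28.3 CPM in PF4-Cre knockout against 12.4 CPM in PF4-Cre wild-type, and 52.1 CPM in ROSA-Cre knockout against 15.6 CPM in ROSA-Cre wild-type. It rose by a log2 fold change of 1.46 (SE 0.19, edgeR adjusted p = 0.00385), with ratios of 2.29 (2.10 to 2.50) and 3.33 (2.97 to 3.75). Without PF4-Cre wild-type or without ROSA-Cre knockout it was not called, and the edgeR adjusted p over the 4 fits with 1 library left out ran from 0.00501 to 0.294. Abcg1, the exporter to mature lipoprotein particles, had 60.5 CPM in PF4-Cre knockout against 53.9 CPM in PF4-Cre wild-type, and 139 CPM in ROSA-Cre knockout against 57.7 CPM in ROSA-Cre wild-type. Both of its knockout libraries lay above the wild-type libraries, narrowly in PF4-Cre, and the test did not call it (log2 fold change 0.71, SE 0.24, edgeR adjusted p = 0.0754). DESeq2 called Abcg1 (adjusted p = 0.0159), as did edgeR restricted to genes of at least 5 CPM (adjusted p = 0.0407) or without PF4-Cre knockout (log2 fold change 1.32, adjusted p = 0.0283). Without ROSA-Cre knockout its log2 fold change was 0.12 (edgeR adjusted p = 0.962), and it was not called without either wild-type library (edgeR adjusted p = 0.404 without PF4-Cre wild-type and 0.314 without ROSA-Cre wild-type).

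Lrp8, a receptor of the lipoprotein receptor family that binds reelin and apolipoprotein E, had 707 counts (11.7 CPM) in PF4-Cre knockout against 1628 counts (27.2 CPM) in PF4-Cre wild-type, and 103 counts (4.60 CPM) in ROSA-Cre knockout against 797 counts (32.4 CPM) in ROSA-Cre wild-type. The wild-type libraries were alike, and the knockout libraries lay far below them, furthest in ROSA-Cre. Its ratio was 0.429 (0.392 to 0.469) in PF4-Cre, while the ROSA-Cre pair gave 0.142 (0.115 to 0.175), the lowest of any member in both models. Without ROSA-Cre knockout Lrp8 was not called (edgeR adjusted p = 0.115, log2 fold change -1.35), while leaving out any other library kept the call.

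**Figure D3:**
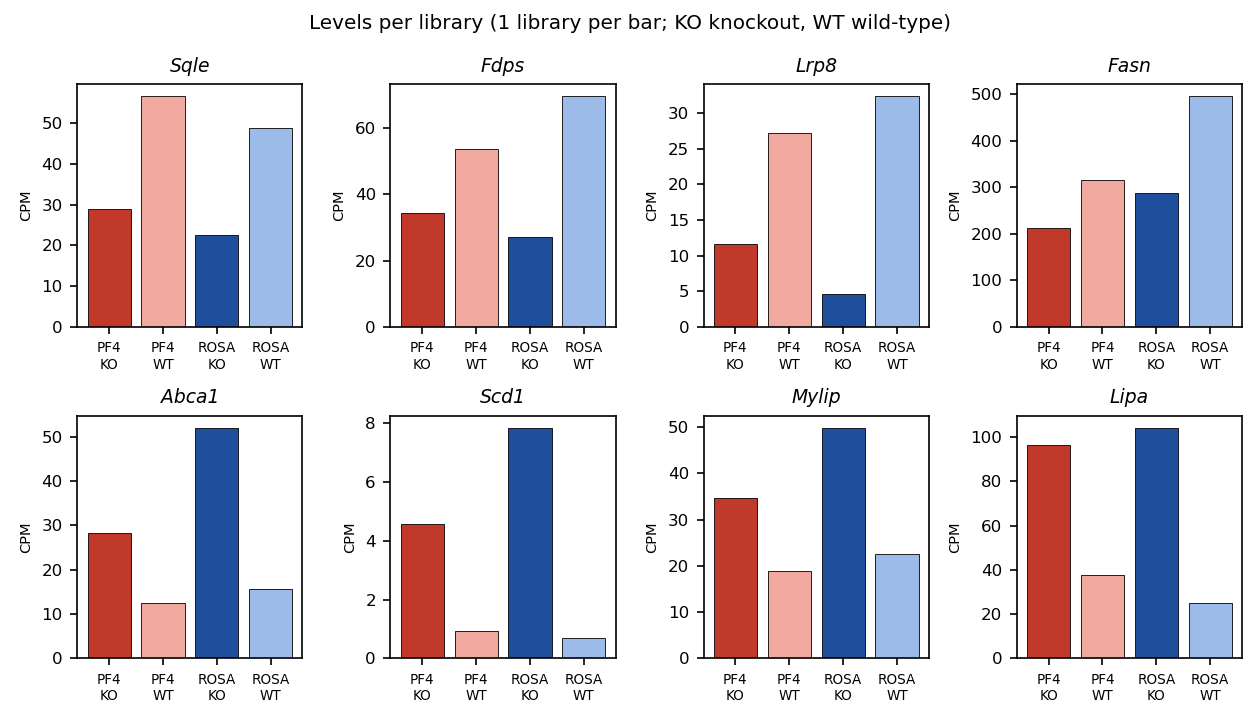
CPM (bars from 0, 1 library per bar) of 4 genes that fell (Sqle, Fdps, Lrp8, Fasn) and 4 that rose (Abca1, Scd1, and the non-members Mylip and Lipa), with knockout (KO) left of wild-type (WT) in each Cre model. Lrp8 has 4.60 CPM in ROSA-Cre knockout and Scd1 0.691 CPM in ROSA-Cre wild-type.

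In the PF4-Cre pair, 8 members were at least 1.5-fold lower and 2 at least 1.5-fold higher in knockout, against 8.21% and 16.7% of all genes, and in the ROSA-Cre pair 6 were lower and 5 higher, against 18.3% and 22.3%. The median log2 ratio of the members was -0.46 in PF4-Cre and -0.42 in ROSA-Cre, where that of all genes was -0.05 and -0.001. The ratios of Cyp51, Msmo1, Acat2 and Lss were lower in PF4-Cre than in ROSA-Cre, those of Fdps and Lrp8 lower in ROSA-Cre, and those of Abca1, Abcg1, Scd1, Scd2 and Insig1 higher in ROSA-Cre. Those of Sqle, Acly, Acaca, Srebf1 and Srebf2 lay close together. With 1 library per group, differences between the models in the genotype effect were not tested.

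**Figure D4:**
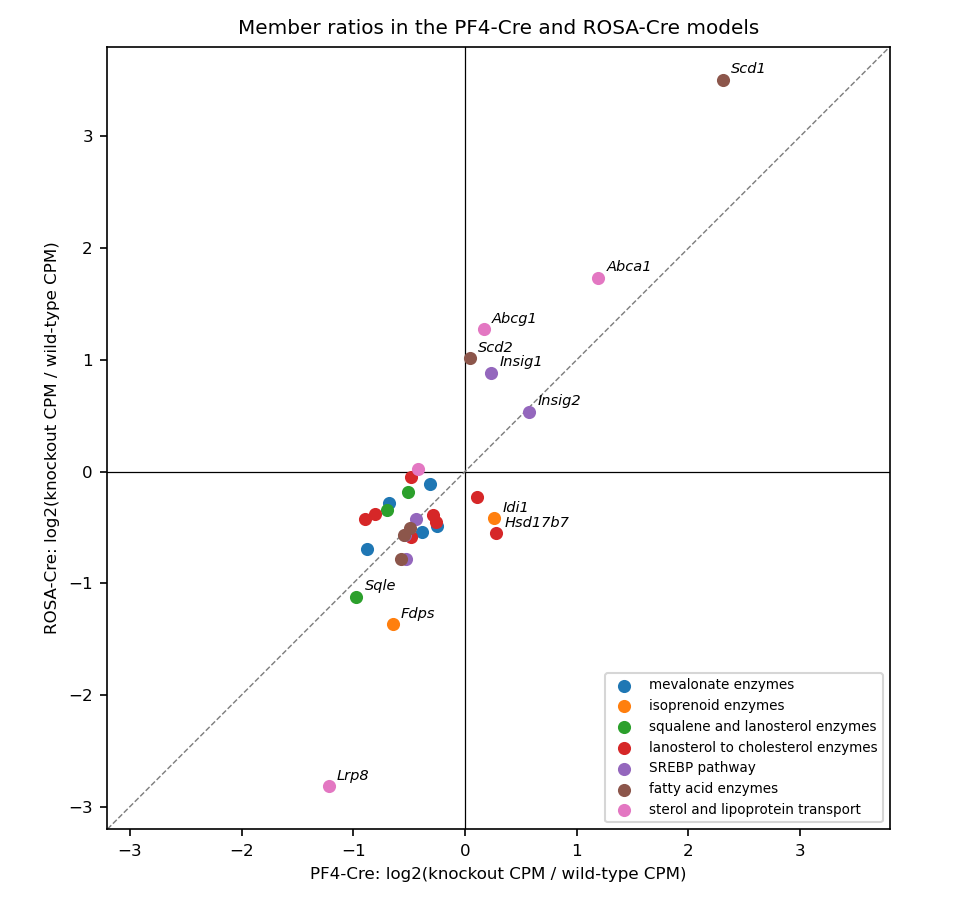
log2 ratio of knockout to wild-type CPM in the PF4-Cre pair (horizontal) and in the ROSA-Cre pair (vertical), 1 point per member, coloured by role, with the dashed line marking equal ratios. Most sterol enzymes lie below 0 on both axes, Lrp8 is at the lower left and Scd1 at the upper right, and Idi1 and Hsd17b7 are right of 0 but below it.

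Between the Cre models, at matched genotype, 3 members were higher and 1 lower in ROSA-Cre than in PF4-Cre, where 8.33% of all genes were higher and 10.4% lower. Srebf1 was higher by a log2 fold change of 1.05 (edgeR adjusted p = 0.00436), Srebf2 by 0.88 (edgeR adjusted p = 0.00643) and Fasn by 0.54 (edgeR adjusted p = 0.0283), and Idi1 was lower, as given above. After the GC and length offset, 1 of these 4 was called, Srebf1, at a log2 fold change of 0.54 (edgeR adjusted p = 0.0459), with Srebf2 at 0.37, Fasn turned to -0.02 and Idi1 at -0.51. The same offset put 64.4% of 480 called genes higher in ROSA-Cre, against 44.4% of 2824 without it. No member was called between the models with 1 library left out and the genotype term dropped. Depth, mice and any batch cannot be told apart from the Cre model.

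Other genes of sterol metabolism were listed by role. Of 9 further genes of sterol branches and SREBP processing, 0 rose and 3 fell, against 12.6% and 9.59% of all genes: Acat1, the mitochondrial thiolase (log2 fold change -0.45, SE 0.12), Erg28, a scaffold of sterol enzymes (-0.76, SE 0.16), and Pdss1, which makes the ubiquinone side chain (-0.88, SE 0.21). Of 16 genes of sterol uptake, storage and LXR action, 5 rose and 2 fell, against the same 12.6% and 9.59%. Over the 16 the log2 fold change was below 0 in 9 and above 0 in 7, with a median of -0.17. Those with the smallest p were Lipa, the lysosomal lipase that frees cholesterol from its esters (1.69, SE 0.19, edgeR adjusted p = 0.00205), Rxra, the partner of LXR (1.71, SE 0.22, edgeR adjusted p = 0.00326), Mylip, the LXR-induced ligase that degrades lipoprotein receptors (1.01, SE 0.16, edgeR adjusted p = 0.0071), and Nceh1, another hydrolase of cholesterol esters (0.98, SE 0.23, edgeR adjusted p = 0.0249). Lipa had 96.5 CPM in PF4-Cre knockout against 37.8 CPM in PF4-Cre wild-type, and 104 CPM in ROSA-Cre knockout against 25.1 CPM in ROSA-Cre wild-type. Mylip had 34.7 CPM in PF4-Cre knockout against 18.8 CPM in PF4-Cre wild-type, and 49.9 CPM in ROSA-Cre knockout against 22.5 CPM in ROSA-Cre wild-type. Lipa, Rxra, Mylip and Nceh1 all rose, as did Npc2 (0.43, SE 0.13, edgeR adjusted p = 0.049). The 2 that fell were Scarb1 (-0.58, SE 0.15, edgeR adjusted p = 0.0337) and Soat1 (-0.50, SE 0.14, edgeR adjusted p = 0.0467). The LXR genes themselves did not pass: Nr1h2 had a log2 fold change of 0.30 (SE 0.13, edgeR adjusted p = 0.133) and Nr1h3 of -0.25 (SE 0.32, edgeR adjusted p = 0.623); both were chosen after their values were seen.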

How the data were processed

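RNA-seq of 4 sorted megakaryocyte libraries, 1 per combination of genotype and Cre model, was used. The authors deposited raw counts per Ensembl gene for each library. Alignment tools listed by the submitters' processing notes are TopHat2 2.0.10 and SAMtools, beside HTSeq for counting, DESeq, and builds called mm10 or GRCm38. Annotation release and counting strand: not given in the sources used here. HTSeq's summary lines stayed out of library sizes: 32.1% to 36.2% of reads had no feature and 0.448% to 0.532% were ambiguous.

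Symbols, coordinates and exon lengths came from GENCODE M21 (GRCm38), which matched 40340 of 41214 identifiers. Counts were scaled by TMM, filtered with filterByExpr by genotype (minimum count 10) and fitted in edgeR 4.0.16 (R 4.3.3) with genotype and Cre model as terms and 1 residual degree of freedom. The quasi-likelihood test was adjusted over 15063 genes by Benjamini-Hochberg at 0.05. When tried on a single simulated draw, it gave a larger share of false calls than that limit and missed most 1.5-fold changes. In that draw far fewer genes differed by genotype than were called here, so these shares need not hold for these data. Within a pair, ratios are of CPM, with exact 95% (Clopper-Pearson) intervals that cover counting error only, and 1.5-fold as the limit. A count of 0 allows up to 3 counts, or 0.0487 to 0.137 CPM. CPM per kb divides by exonic length. DESeq2 1.42.0 was an alternative. Reads shared with other genes were judged from 50-base words of the longest transcript.

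Members and lists were chosen with earlier results of these data known. All 32 members may be named, and of other lipid, gate and marker lists at most 4 genes that passed, by smallest p. As an exception, all called genes of sterol uptake, storage and LXR action are named. Some single genes of the pathway are not reported here.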

Additional observations from a re-analysis of the deposited data

Results flagged for a closer look

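Idi1, the isopentenyl diphosphate isomerase gene, moved in opposite directions in the models, with a knockout to wild-type ratio of 1.20 in the PF4-Cre pair and 0.748 in the ROSA-Cre pair. Hsd17b7, a sterol ketoreductase gene, did likewise, with 1.22 in PF4-Cre and 0.684 in ROSA-Cre. All 4 ratios have counting intervals that leave out 1, but with 1 library per group the difference between the models was not tested.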

How the results depend on the processing

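DESeq2 size factors, leaving out erythroid, neutrophil and mitochondrial genes, and an older quasi-likelihood method chosen after seeing the data left all 32 members on the same side of the threshold. Members called lower, 12 in number, came to 0 with the Cre model term dropped and to 0 to 1 with 1 library left out. Members called higher, 2 in number, came to 4 with genes of at least 5 CPM (where Scd1 was not tested), 0 with the term dropped and 1 to 3 with 1 library left out. Over all genes, 3348 calls became 1935 without a filter, 162 with the term dropped and 509 to 883 with 1 library left out. Between the Cre models, the 1 member lower came to 0 without a filter, with the genotype term dropped, with the GC and length offset and whichever library was left out. The 3 members higher came to 6 with the DESeq2 Wald test, 1 with the offset, and 0 with the term dropped or whichever library was left out. At 2-fold, 1 member was lower in the PF4-Cre pair and 3 in the ROSA-Cre pair; with genes of at least 5 CPM, 1 was at least 1.5-fold higher in the PF4-Cre pair.

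The genotype effect changed sign for 4 members, of which Srebf1 alone had been called. Idi1 was at 0.011 without a filter, 0.042 with genes of at least 5 CPM, 0.051 with the term dropped, and -0.82 to 0.56 with 1 library left out (above 0 without PF4-Cre wild-type, 0.46, or ROSA-Cre knockout). Tm7sf2 was at 0.019 with genes of at least 5 CPM and -0.14 to 0.058 with 1 library left out (above 0 without either ROSA-Cre library). Hsd17b7 ran from -0.69 to 0.41 (0.13 without PF4-Cre wild-type, highest without ROSA-Cre knockout) and Srebf1 from -1.05 to 0.21 (0.010 without PF4-Cre knockout, highest without ROSA-Cre wild-type). Fits without 1 library also drop the Cre model term and hold fewer samples. The cause of the other changes was not tested. No paired analysis was possible because each group has 1 library, and groups share no replicate number beyond it; the Cre model term stands in its place.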

Other observations

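Genes of glycerolipid synthesis included 3 of 15 that rose in knockout libraries and 0 that fell, where 12.6% of all genes rose and 9.59% fell. Lpin1, the phosphatidate phosphatase lipin 1, had 33.6 CPM in PF4-Cre knockout against 13.1 CPM in PF4-Cre wild-type, and 48.4 CPM in ROSA-Cre knockout against 14.2 CPM in ROSA-Cre wild-type (log2 fold change 1.55, SE 0.18, edgeR adjusted p = 0.00239). Both knockout libraries lay above both wild-type libraries. Cds2, a CDP-diacylglycerol synthase, rose by 0.72 (SE 0.14, edgeR adjusted p = 0.0134) and Agpat3, an acyltransferase, by 0.49 (SE 0.12, edgeR adjusted p = 0.0278).

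Of 17 tested genes of fatty acid supply, elongation and desaturation, 1 rose and 2 fell, shares that lie near or under those of all genes. Fads3, of the fatty acid desaturase family, had 19.3 CPM in PF4-Cre knockout against 6.04 CPM in PF4-Cre wild-type, and 20.6 CPM in ROSA-Cre knockout against 7.96 CPM in ROSA-Cre wild-type (log2 fold change 1.53, SE 0.21, edgeR adjusted p = 0.00461). Elovl1, an elongase of long acyl chains, fell by 0.73 (SE 0.13) and Acsl5, an acyl-CoA synthetase, by 0.53 (SE 0.14). Of 9 tested genes of fatty acid oxidation, 1 rose and 0 fell, which is likewise no more than among all genes. It was Ppargc1a, a coactivator of mitochondrial genes, with 96 counts in PF4-Cre knockout against 4 in PF4-Cre wild-type, and 32 in ROSA-Cre knockout against 0 in ROSA-Cre wild-type. Ppargc1a passed the filter on low counts only through the knockout libraries, where it is high, so its call adds nothing to these counts.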
